A study of Mus musculus with 6 samples.

Results

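Binding of hnRNP UL1 to chromatin 10 h after lipopolysaccharide (LPS) was compared with binding in unstimulated cells. The data were the authors' lists of ChIP-seq peaks from RAW 264.7 cells, a mouse macrophage cell line, given LPS (100 ng/ml) for 0, 4 or 10 h, with chromatin pulled down by an hnRNP UL1 antibody. There was 1 library per time, so no test between times was possible and all statements describe these 3 libraries. The input libraries of the series were not analysed here. Peaks were included when the Ensembl number of the nearest gene was below ENSMUSG00000022416, the gene at which the 10 h table ends. This kept 1152 of 1153 peaks at 10 h and 1312 of 8425 peaks at 0 h, together 2464 of the 18624 complete rows of the series. The 5298 peaks of the 4 h library in the same range are given beside them to show whether a difference was already present at 4 h. Each peak is a point 2 bp wide without height, fold enrichment or read depth, so more peaks from stronger binding and more peaks from a more deeply sequenced or less strictly called library cannot be told apart.

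hnRNP UL1 (U-like protein 1 of the heterogeneous nuclear ribonucleoproteins) binds RNA in the nucleus. It acts in the processing of transcripts and in signalling from damaged DNA. It is recovered with chromatin at many expressed genes, through DNA, RNA or protein partners that formaldehyde crosslinking does not separate. LPS is a component of the outer membrane of Gram-negative bacteria. It is sensed by Toll-like receptor 4, which signals through NF-kB, MAP kinases and interferon regulatory factors. Macrophages answer with an early wave of regulators and cytokines and a later programme that includes interferon-response genes and metabolic enzymes, while inhibitors of the pathway bring the response down again.

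To show sequence at start peaks of genes that had one at both times or at a single time, bases upstream of 8 genes are printed from RefSeq (build GRCm38.p6, the build of the tables), on the strand of the gene. All printed bases lie outside the genes of that annotation and outside the transcripts named in the tables. Capitals mark the 11 bases centred on a peak point of 0 h or 10 h. The 8 were chosen after their values were seen, and positions are counted from the RefSeq start, with negative numbers upstream. Dmap1 and Mnt had start peaks at both times, but each printed stretch holds a point of 1 time. Dmap1 encodes a partner of DNA methyltransferase 1 and a subunit of chromatin-modifying complexes, and its 0 h point (chr4:117682323-117682475, minus strand) at -117 lay 414 bp from its 10 h point, with 0 peaks at 4 h. Mnt encodes a MAX-binding repressor of the MYC network. It had 2 start peaks at 10 h, 1 of them 98 bp from the 0 h point, and the other is the point at -222 (chr11:74830674-74830803, plus strand).
Dmap1: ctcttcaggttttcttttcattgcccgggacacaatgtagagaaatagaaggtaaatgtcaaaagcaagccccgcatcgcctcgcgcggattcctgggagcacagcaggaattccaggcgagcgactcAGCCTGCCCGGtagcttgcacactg
Mnt: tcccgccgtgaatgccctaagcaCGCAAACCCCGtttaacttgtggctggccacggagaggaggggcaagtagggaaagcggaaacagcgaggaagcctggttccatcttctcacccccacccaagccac
Rab1a, Smg8 and Psmc6 had a start peak at 0 h and no peak at 10 h. Rab1a encodes a GTPase of transport from the endoplasmic reticulum to the Golgi, with its 0 h point at -175 (chr11:20201162-20201361, plus strand). Smg8 encodes a regulator of the kinase of nonsense-mediated RNA decay, with a 0 h point at -173 (chr11:87086828-87087027, minus strand). Psmc6 encodes an ATPase subunit of the proteasome, with its 0 h point at -140 (chr14:45329574-45329773, plus strand).
Rab1a: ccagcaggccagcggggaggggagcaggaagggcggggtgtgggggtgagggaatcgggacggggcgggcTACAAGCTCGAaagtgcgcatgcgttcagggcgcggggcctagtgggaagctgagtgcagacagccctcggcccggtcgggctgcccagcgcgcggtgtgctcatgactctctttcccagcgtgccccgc
Smg8: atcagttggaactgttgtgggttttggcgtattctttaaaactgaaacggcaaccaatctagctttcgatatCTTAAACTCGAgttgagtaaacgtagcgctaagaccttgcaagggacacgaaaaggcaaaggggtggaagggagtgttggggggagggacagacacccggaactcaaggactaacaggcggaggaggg
Psmc6: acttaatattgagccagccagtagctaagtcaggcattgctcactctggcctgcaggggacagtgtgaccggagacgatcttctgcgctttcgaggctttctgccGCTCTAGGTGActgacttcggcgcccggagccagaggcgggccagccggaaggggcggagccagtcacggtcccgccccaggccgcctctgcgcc
Rasa1, Nsun2 and Cd164 had no peak at 0 h and a start peak at 10 h. Rasa1 encodes a GTPase-activating protein of RAS, with its 10 h point at -192 (chr13:85289537-85289736, minus strand). Nsun2 encodes an RNA cytosine methyltransferase, with its 10 h point at -143 (chr13:69611766-69611965, plus strand). Cd164 encodes a sialomucin of the cell surface and endosomes, with a 10 h point at -189 (chr10:41519250-41519411, plus strand).
Rasa1: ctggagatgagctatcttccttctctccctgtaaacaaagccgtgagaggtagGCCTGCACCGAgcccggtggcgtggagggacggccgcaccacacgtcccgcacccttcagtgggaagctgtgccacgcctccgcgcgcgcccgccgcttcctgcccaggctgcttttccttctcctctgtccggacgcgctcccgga
Nsun2: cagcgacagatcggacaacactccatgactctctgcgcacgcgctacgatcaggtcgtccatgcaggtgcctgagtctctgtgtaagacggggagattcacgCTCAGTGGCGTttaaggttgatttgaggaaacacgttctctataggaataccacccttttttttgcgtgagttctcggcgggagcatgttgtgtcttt
Cd164: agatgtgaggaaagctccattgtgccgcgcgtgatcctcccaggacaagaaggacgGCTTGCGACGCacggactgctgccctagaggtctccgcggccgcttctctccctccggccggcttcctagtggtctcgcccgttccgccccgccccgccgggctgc
G and C made up between 49.5% (Smg8) and 71.0% (Rab1a) of the printed bases. The genes of the 3 kinds did not separate by it, since Nsun2 at 51.5% and Cd164 at 68.5% were both without a 0 h peak.

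The same held over all starts that could be matched to a RefSeq window of 300 bases, 250 before and 50 after the start. A start peak was matched to the nearest RefSeq start within 1000 bp, so its point could lie outside the 300 bases. Windows were found for 318 of 452 start peaks at 0 h and 146 of 240 at 10 h. The median GC content was 64.0% for 273 windows with a 0 h peak alone, 65.2% for 28 windows with both and 62.3% for 113 windows with a 10 h peak alone, against 52.7% for all 32817 windows. The median number of CpG dinucleotides was 25, 25 and 23, against 7. Starts with a peak of either time thus had more CpG at the median than all windows. The set of all windows was not limited to the gene ID range of the peaks, so it is not a matched background. Among motifs searched on both strands, where matches of different motifs may overlap, the GC box GGGCGG was in 67.8% (exact 95% interval 61.9 to 73.3) of the windows with a 0 h peak alone, 75% (55.1 to 89.3) of the 28 with both, 71.7% (62.4 to 79.8) of those with a 10 h peak alone and 35.6% of all windows. The ETS letters CCGGAAG were in the same order in 19.8% (15.2 to 25), 14.3% (4.03 to 32.7), 23% (15.6 to 31.9) and 8.86%. The NRF1 letters GCGC, any base, TGCGC were in 11% (7.54 to 15.3), 7.14% (0.877 to 23.5), 18.6% (11.9 to 27.0) and 4.59%. The NF-kB letters GGG, any 3 bases, TTCC were in 6.59% (3.95 to 10.2), 17.9% (6.06 to 36.9, 5 windows), 5.31% (1.97 to 11.2) and 5.56%. The CCAAT box was in 35.5%, 32.1%, 40.7% and 37.4%, near the value of all windows. The TATA letters TATAAA were in 7.33%, 14.3%, 5.31% and 13.6%, lower at single-time starts than in all windows. Other motifs searched are not given here. For each of the motifs given the intervals of windows with a peak at 0 h alone and at 10 h alone overlapped. Intervals here and below are exact Clopper-Pearson intervals that cover counting error only, and since neighbouring peaks are not independent they understate how much repeat cultures could differ.

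The number of peaks at 10 h was near that of unstimulated cells, but the genes and positions were largely others. The 0 h list put 1312 peaks on 791 genes (1.66 per gene with a peak) and the 10 h list 1152 peaks on 680 genes (1.69 per gene). The 4 h list put 5298 peaks on 1835 genes (2.89 per gene). Of the 2104 genes named at any time, 367 had peaks at 10 h and not at 0 h (17.4%), 478 at 0 h and not at 10 h (22.7%), 313 at both (14.9%) and 946 at 4 h alone. These are called gained, lost, kept and 4 h-only genes in what follows. Of the 0 h genes 39.6% (36.1 to 43.1) had a 10 h peak, and of the 10 h genes 46.0% (42.2 to 49.9) had a 0 h peak. Among the 313 kept genes 134 had equal numbers at both times, 85 more at 10 h and 94 more at 0 h.

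Genes were then followed through the 4 h list. That list is longer, with 5298 peaks against 1152 at 10 h, and depth is unknown. A gene with a 4 h peak and none at 10 h is therefore not shown to have returned to rest. Of 1222 genes with a 4 h peak and no 0 h peak, 946 had no peak at 10 h and 276 still had one (22.6%, interval 20.3 to 25). Of 613 genes with peaks at 0 h and 4 h, 275 had a peak at 10 h (44.9%, 40.9 to 48.9). Of 178 genes with a 0 h peak that had none at 4 h, 38 had a peak again at 10 h (21.3%, 15.6 to 28.1). Gained genes had a 4 h peak in 276 of 367 cases (75.2%), lost genes in 338 of 478 (70.7%) and kept genes in 275 of 313 (87.9%). Over all 2104 genes 1835 had one, including the 946 named at 4 h alone. Having a 4 h peak was thus not particular to gained or lost genes. Kept genes were the longest, with a median RefSeq length of 48.3 kb against 30.0 kb for gained, 28.4 kb for lost and 23.5 kb for 4 h-only genes.

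**Figure D1:**
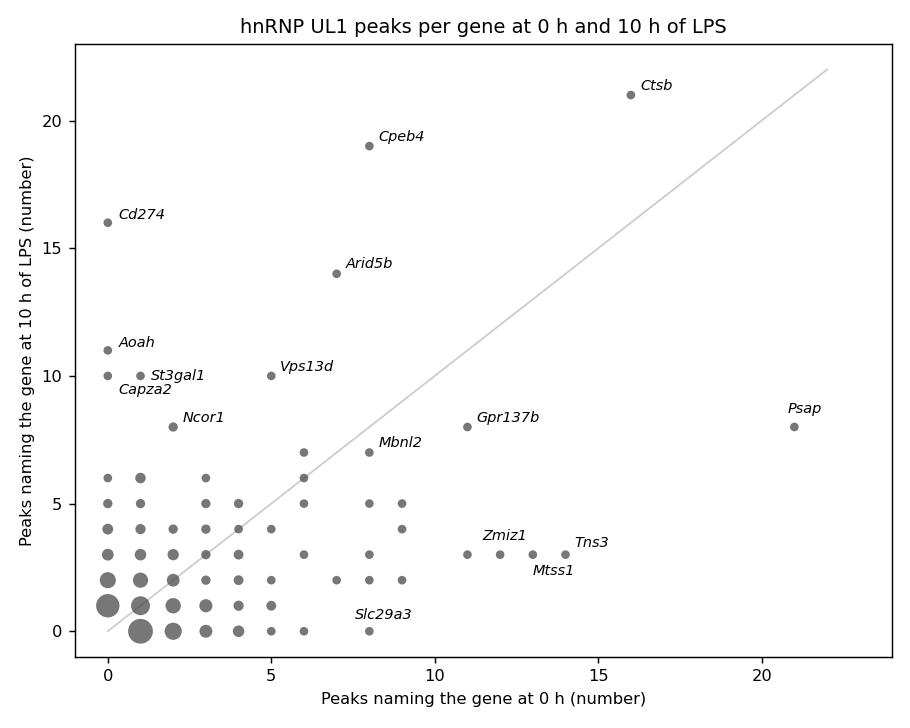
Number of peaks naming each gene at 0 h (x axis) and at 10 h of LPS (y axis). Each point is 1 combination of numbers, larger where more genes share it, and the line marks equal numbers. Most genes have 1 peak at a single time. Cd274, Aoah and Capza2 sit on the y axis with 16, 11 and 10 peaks, Slc29a3 on the x axis with 8, and Ctsb and Psap far out with 16 and 21 peaks at 0 h and 21 and 8 at 10 h.

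The widest difference between the times was at transcription starts. Peaks within 1 kb of a start numbered 452 at 0 h and 240 at 10 h (ratio 0.531), whereas peaks elsewhere numbered 860 and 912 (ratio 1.06). As a share, start peaks made up 34.5% (31.9 to 37.1) at 0 h and 20.8% (18.5 to 23.3) at 10 h. Peaks in introns after the first made up 19.7% (17.5 to 21.9) at 0 h and 29.3% (26.7 to 32.1) at 10 h, that is 258 peaks in 175 genes and 338 peaks in 216 genes. The shares in first introns (12.7% and 12.8%), in distal intergenic sequence (14.5% and 15.5%) and at 1 to 2 kb from a start (7.09% and 6.77%) had overlapping intervals. In this layout the 10 h list resembled the 4 h list, which had 20.1% of its peaks (19.0 to 21.2) at starts and 28.0% (26.7 to 29.2) in later introns. The number of peaks was thus near that of rest, while the share at starts and in later introns was near that of 4 h.

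**Figure D2:**
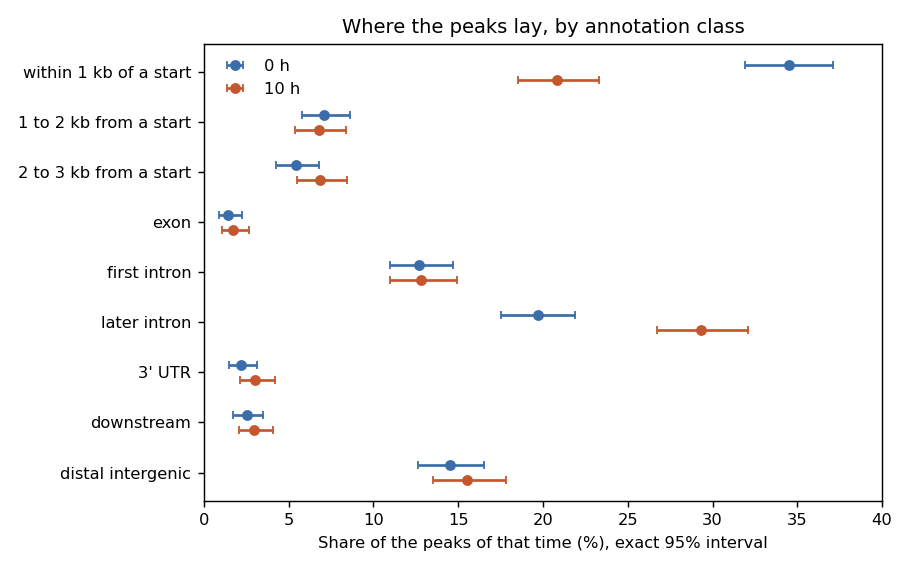
Share of the peaks of 0 h and 10 h in each annotation class of the authors' tables (x axis, percent). Points are shares and bars exact 95% intervals, and the 5′ UTR class with 1 peak at 10 h is left out. The intervals of the 2 times are apart for starts (34.5% and 20.8%) and for later introns (19.7% and 29.3%) and overlap in every other class shown.

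The missing start peaks were those closest to the start. From 500 bp before to just under 500 bp after a start the 0 h list had 386 peaks (29.4% of all) and the 10 h list 182 (15.8%). At more than 500 bp and up to 1 kb there were 66 and 58 peaks, 5.03% of the peaks at both times. In the first 250 bp downstream of the start the 0 h list had 205 peaks and the 10 h list 74, and in the 250 bp upstream 88 and 55. Of all start peaks 62.6% (58.0 to 67.1) lay at or after the start at 0 h and 53.8% (47.2 to 60.2) at 10 h.

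**Figure D3:**
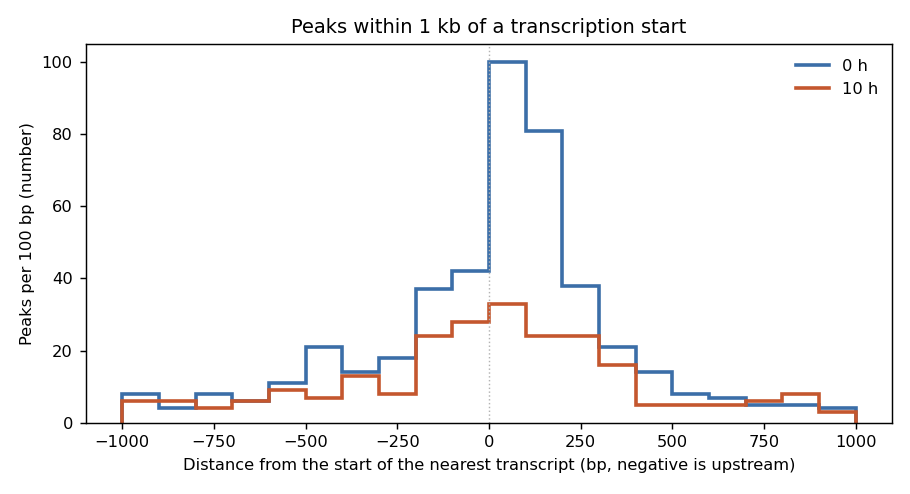
Number of peaks per 100 bp (y axis) by distance from the start of the nearest transcript (x axis, bp, negative upstream) at 0 h and 10 h. The 0 h line has a tall maximum just downstream of the start, where 205 peaks lie in 250 bp against 74 at 10 h, and the lines run together beyond 500 bp.

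By gene, 408 genes had a start peak at 0 h and 225 at 10 h, with 59 in common. Of the 574 genes with a start peak at either time, 349 had it at 0 h and not at 10 h (60.8%) and 166 at 10 h and not at 0 h (28.9%). Of the 349 genes, 88 had other peaks at 10 h (25.2%), as in Zmiz1 and Tns3, which each had 2 start peaks at 0 h and 0 at 10 h, with 3 peaks at 10 h at other places. Genes with 3 start peaks at 0 h and 0 at 10 h were Dnmt3a, a DNA methyltransferase, Nsd1, a histone H3 lysine methyltransferase, Papola, the poly(A) polymerase, and Cyfip2, a subunit of the actin-regulating WAVE complex. At 4 h these genes had 2, 0, 1 and 0 start peaks. In the other direction Tnfaip3, whose product A20 restrains NF-kB, had 0, 4 and 3 start peaks at 0, 4 and 10 h. Ncor1, a nuclear receptor corepressor, had 1, 0 and 3, and Brpf1, a scaffold of histone acetyltransferase complexes, had 0, 1 and 2. Of the 59 genes with start peaks at both 0 h and 10 h, 27 had none at 4 h (45.8%), among them Rnf168, Slbp, Ralb, Cdk9, Crk and Hnrnph3. A 4 h start peak was present in 159 of the 349 genes with one at 0 h and not at 10 h (45.6%). It was present in 87 of the 166 genes with one at 10 h and not at 0 h (52.4%). Its absence at 4 h was thus no rarer in those genes.

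Few peaks lay at the same place at 0 h and 10 h. Of the 1152 peaks at 10 h, 92 lay within 500 bp of a 0 h peak (7.99%, 6.49 to 9.70), and of the 1312 peaks at 0 h, 97 lay that close to a 10 h peak (7.39%, 6.04 to 8.94). Within 100 bp there were 34 and within 50 bp 18. In the kept genes 92 of 647 peaks at 10 h (14.2%) were shared, and the median distance from a 10 h peak to the nearest 0 h peak was 8017 bp. Of the 92 shared peaks 25 were in Ctsb, Psap and Cpeb4. By class the shared part was 14.2% (10.0 to 19.2) of 10 h start peaks, 12.8% (7.91 to 19.3) of those in first introns, 20.6% (8.70 to 37.9) of the 34 just downstream of a gene and 2.66% (1.22 to 4.99) of those in later introns. The later introns, where the 10 h list had more peaks, held the smallest shared part of these 4 classes. These shares do not allow for the space of each class, which is narrow within 1 kb of a start. Several shared first-intron peaks were also in Ctsb, Psap and Cpeb4, where points are crowded. Whether sharing differs by class beyond this was not tested. Close shared start points were at Rnf168, a ubiquitin ligase of the DNA damage response, at 34 bp, Lrrc59 at 38 bp and Slbp, the histone stem-loop binding protein, at 47 bp. Of the 34 shared start peaks 21 had no 4 h point within 500 bp (61.8%, 43.6 to 77.8). Of the 58 other shared peaks 29 had none (50%, 36.6 to 63.4), and the intervals overlap.

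The gene with the largest excess at 10 h was Cd274, which encodes PD-L1, the ligand of the inhibitory receptor PD-1. It had 0, 26 and 16 peaks at 0, 4 and 10 h, the last over 19.9 kb. At 10 h 8 of them lay in later introns, 3 in the first intron and 0 within 1 kb of a start, and 15 of the 16 were within 500 bp of a 4 h peak. Cd274 was therefore marked along its body at both LPS times and at no point at rest. Aoah, the acyloxyacyl hydrolase that deacylates and inactivates LPS, had 0, 21 and 11 peaks at 0, 4 and 10 h, with 6 of the 10 h points in 4.9 kb near its 5′ end, where the 4 h list had 1. Capza2, a subunit of the actin capping protein, had 0, 12 and 10 peaks, and the neighbouring Met, the receptor of hepatocyte growth factor, had 0, 17 and 6. Of the 10 h points 4 in Aoah, 4 in Capza2 and 0 in Met were within 500 bp of a 4 h point. These genes had no 0 h peak and many at both LPS times, but outside Cd274 most of the 10 h points were over 500 bp from those of 4 h. The 4 h peaks were also densest in Cd274, with 26 for a gene of 26.0 kb. Capza2 had 12 for 30.0 kb, Met 17 for 110.6 kb and Aoah 21 for 242.5 kb. Nearness within 500 bp is thus most easily reached in Cd274. Counted in the gene or 5 kb upstream, Capza2 had an excess of 7 peaks at 10 h.

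Other genes with a large excess had a few peaks at rest. Cpeb4, a cytoplasmic polyadenylation element-binding protein, had 8, 33 and 19 peaks, Arid5b, a DNA-binding cofactor of histone demethylation, 7, 21 and 14, and St3gal1, a sialyltransferase, 1, 37 and 10. Ncor1 had 2, 5 and 8. Its 8 peaks at 10 h were all within 3 kb of a start of one of its transcripts, 0 of them near a 0 h or 4 h point, so that it had more peaks at 10 h than at either other time. Tmcc3, a coiled-coil protein of the endoplasmic reticulum membrane, had 2, 44 and 8 peaks. The kinase Syk, which relays signals of immune receptors, had 1, 13 and 6, Lims1, an adaptor of integrin adhesions, 1, 14 and 6, and Chn2, a GTPase-activating protein of RAC, 1, 13 and 6. In all of these genes apart from Ncor1 the 10 h number lay between those of rest and 4 h.

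The largest deficits at 10 h were in genes with many peaks at rest. Psap, the precursor of the saposins that activate lysosomal lipid hydrolases, had 21, 18 and 8 peaks at 0, 4 and 10 h. All 8 peaks at 10 h lay within 500 bp of a 0 h peak, in a stretch where 20 points at 0 h fall in 12.6 kb and such nearness is easily reached. Tns3, a tensin of focal adhesions, had 14, 33 and 3 peaks, Mtss1, a membrane-bending regulator of actin, 13, 8 and 3, and Zmiz1, a coactivator with a SUMO-ligase-like zinc finger, 12, 15 and 3. In these genes 0 of the 10 h points lay within 500 bp of a 0 h point. Dpys, the pyrimidine-degrading enzyme dihydropyrimidinase, had 11, 5 and 3 peaks. Counted in the gene or 5 kb upstream, the difference of 10 h minus 0 h was -7 in Tns3, -6 in Mtss1 and -2 in Dpys. Slc29a3, a nucleoside transporter of lysosomes, had 8, 2 and 0 peaks, Atp6v1c1, a subunit of the lysosomal proton pump, 6, 3 and 0 (a difference of 0 when counted in the gene or 5 kb upstream), and Coro1c, an actin-binding coronin, 5, 1 and 0. Cdh23, the neighbour of Psap, had 9, 8 and 2, the MYOCD-family coactivator gene Mkl2 had 8, 11 and 2, Osbpl8, an oxysterol-binding protein, 8, 13 and 3, and Dnmt3a 7, 14 and 2. In the gene or 5 kb upstream, Mkl2 had 4 peaks at 0 h and 0 at 10 h. Psap, Cdh23 and Slc29a3 lie next to each other on chromosome 10, and a window of 250 kb over Psap and part of Cdh23 went from 27 points at 0 h to 9 at 10 h.

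**Figure D4:**
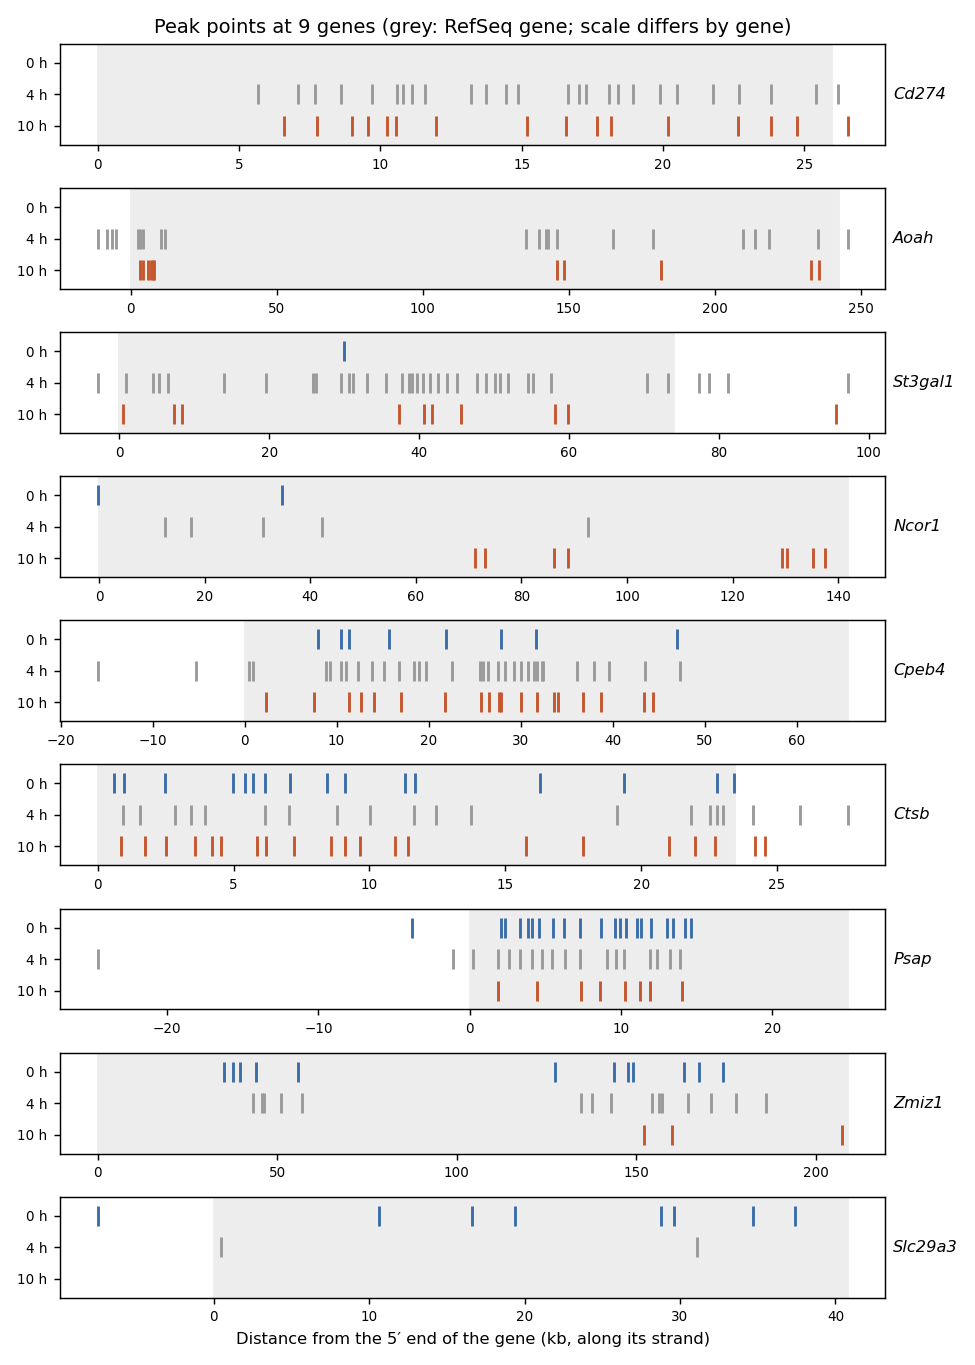
Peak points (ticks) at 0 h, 4 h and 10 h along 9 genes, by distance from the 5′ end of the gene along its strand (x axis, kb, with its own scale for each gene), with the RefSeq gene in grey. Cd274 and Aoah have no tick at 0 h, Slc29a3 has none at 10 h, and the Ctsb series of 16, 20 and 21 points covers the same stretch at all times.

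Ctsb, the lysosomal protease cathepsin B, was the gene with the most shared points. It had 16, 20 and 21 peaks at 0, 4 and 10 h, and 11 of the 10 h peaks lay within 500 bp of a 0 h peak. Its 16 points at 0 h fall in 22.8 kb, so such nearness is easily reached here as in Psap. Gpr137b, a lysosomal membrane protein, had 11, 10 and 8, and Mbnl2, a splicing regulator, 8, 25 and 7 with 0 shared points. Series of at least 5 points with gaps of at most 5 kb numbered 3 at 0 h (Psap with 20 points, Ctsb with 18 and Gpr137b with 5) and 8 at 10 h. By nearest gene the 10 h series were those of Ctsb (21), Cpeb4 (18), the region of Cd274 and Pdcd1lg2 (18), Psap (8), Aoah (6), a gene without a name in the tables (6), Vps13d (5) and Capza2 (5). The 0 h series of Gpr137b and the 10 h series of Vps13d lay wholly outside the RefSeq spans of these genes.

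Genes were next grouped by function, with the members that any of the 3 tables names. Lists were compared by counts beside those of all 2104 genes, where 17.4% were gained, 22.7% lost and 14.9% kept. The median difference between 10 h and 0 h was 0 peaks in every list with more than 2 members and over all genes. Totals were often set by a few genes, so the member with most peaks is often given beside them. Of the genes called gained or lost below, Hk2, Nos2, Acp5, Cybb, Ctsa, Cbx5, Ikzf1, Myc and Csf1 had no peak at 0 h or 10 h when peaks were counted in the gene or 5 kb upstream. By that counting Xrcc3 had 1 peak at both times, and the kept genes Klf6, Nfkbia, Peli1 and Ubb had none at either.

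**Figure D5:**
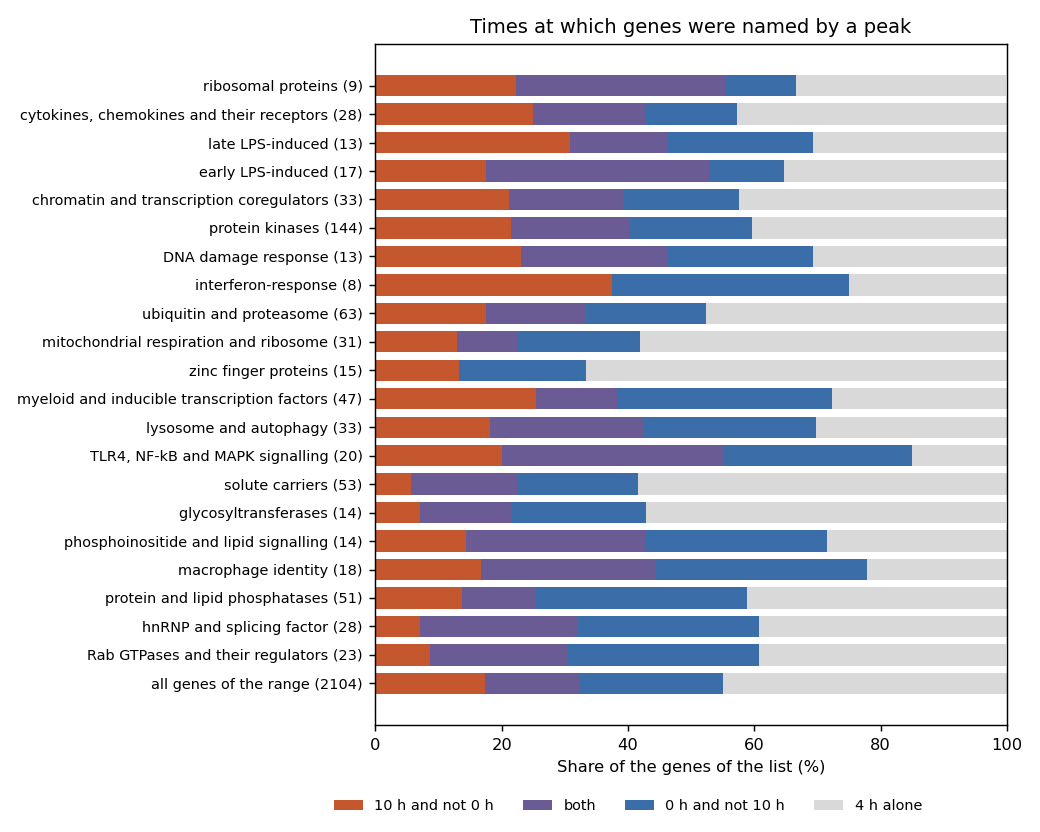
Share of the genes of each list (x axis, percent) named by a peak at 10 h and not at 0 h, at both, at 0 h and not at 10 h, or at 4 h alone, with the number of genes in brackets and all 2104 genes at the bottom. Lists are ordered from the bottom by the gained share minus the lost share, and 21 lists with at least 8 genes are drawn. The late LPS-induced list has 4 gained, 3 lost and 2 kept of 13, and the hnRNP list 2 gained, 8 lost and 7 kept of 28.

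The 13 late LPS-induced genes held 8, 84 and 24 peaks at 0, 4 and 10 h. Of the 24, 16 were in Cd274, and the others made up 8 peaks at both 0 h and 10 h. Gained were Cd274, Acod1 (0, 9 and 4 peaks), which makes itaconate, Nos2 (0, 10 and 1), the inducible nitric oxide synthase, and Csf2 (0, 1 and 1), the growth factor GM-CSF. Lost were Hif1a (4, 6 and 0), the hypoxia-inducible transcription factor, Il10 (1, 9 and 0), an inhibitory cytokine, and Hk2 (1, 4 and 0), a hexokinase. All 4 peaks of Acod1 at 10 h lay within 500 bp of a 4 h peak. With 9 peaks at 4 h for a gene of 9.56 kb, such nearness is easily reached. Of 8 members with a 4 h and no 0 h peak, 4 had a peak at 10 h (50%, beside 22.6% over all such genes). This rests on few genes, and Nos2 and Csf2 had 1 peak each.

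The 17 early LPS-induced genes had 10, 83 and 15 peaks, with 3 gained, 2 lost and 6 kept. Tnfaip3 went from 1 peak at 0 h to 14 and 5, and without it the list had 9 peaks at 0 h and 10 at 10 h. Cd83, a surface marker of activation, had 2, 16 and 2 peaks, Klf6, a zinc finger transcription factor, 1, 8 and 1, Nfkbia, the inhibitor IkB alpha, 1, 8 and 1, and Cd40, a receptor of the TNF family, 0, 15 and 1. By nearest gene the 10 h numbers of these 4 genes were at or within 1 peak of the resting number. The places differed in Cd83, where the 0 h points lay at -32.2 and -6.6 kb from a start and the 10 h points at 6.7 and 9.4 kb, so that in the gene or 5 kb upstream it had 0 and 2 peaks. Among 8 interferon-response genes, Mx1, an antiviral GTPase, had 0, 24 and 3 peaks, Trim25, a ubiquitin ligase of RNA sensing, 0, 13 and 2, and Rsad2, the antiviral enzyme viperin, 0, 11 and 1. Lost were Irf1, Irf9 and Dhx58, each with 1 peak at 0 h.

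The 20 genes of TLR4, NF-kB and MAP kinase signalling had 22, 92 and 17 peaks, with 4 gained, 6 lost and 7 kept. Counted in the gene or 5 kb upstream the order turned, with 13 peaks at 0 h and 15 at 10 h. Lost were the kinase genes Map3k3 (2 peaks at 0 h), Map2k1, Map2k6 and Map3k14 (1 each) and the adaptor genes Traf3 and Tab1 (2 each). Counted in the gene or 5 kb upstream, Traf3 had 0 peaks at 0 h and 1 at 10 h, which turns its direction. Gained were Tab2 and Mapkapk2 (2 peaks each at 10 h), Irak3, a kinase-dead inhibitor of the receptor complex, and Peli2 (1 each). Tnip1, a partner of A20, had 1, 6 and 4 peaks, and Peli1, a ubiquitin ligase of the pathway, 4, 27 and 2. Of the 144 genes with a kinase term in the authors' gene description, 31 were gained, 28 lost and 27 kept, with 75 peaks at 0 h and 93 at 10 h. Of 84 such genes with a 4 h and no 0 h peak, 26 had a peak at 10 h (31.0%, beside 22.6% over all genes).

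Of 51 genes with a phosphatase term, 7 were gained, 17 lost and 6 kept. They had 40 peaks at 0 h and 17 at 10 h, and 26 and 14 without Tns3, which the description counts among them. The lost ones had 1 peak each at 0 h apart from Tab1 with 2, and include the protein phosphatase genes Ppm1a, Ppp2r5c and Ppp2r5e. Start peaks in the list numbered 16 at 0 h and 5 at 10 h, beside 452 and 240 over all genes. The 53 solute carriers had 42, 118 and 20 peaks, with 3 gained, 10 lost and 9 kept. Counted in the gene or 5 kb upstream they had 29 peaks at 0 h and 15 at 10 h. Slc29a3 had 8 and 0 peaks by nearest gene and 7 and 0 by that counting, whereas the glutamate transporter gene Slc1a2 had 9 and 5, and 3 and 3. Of 34 solute carriers with a 4 h and no 0 h peak, 3 had a peak at 10 h (8.82%, beside 22.6% over all such genes).

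The 33 lysosome and autophagy genes had 74, 164 and 59 peaks at 0, 4 and 10 h, with 6 gained, 9 lost and 8 kept. Without Ctsb they had 58 and 38 peaks at 0 h and 10 h. Among the 8 members that encode subunits of the proton-pumping V-ATPase, Atp6v0d1 had 4 peaks at 0 h and 0 at 10 h, Atp6v0a1 3 and 0, and Atp6v1d 1 and 0. Atp6v1c1 had 6 and 0, Atp6v1b2 2 and 1 and Atp6v0e 0 and 1, but counted in the gene or 5 kb upstream these 3 had 0 at both times. Atp6v1e1 and Atp6v1f had 0 at both times and 7 and 2 peaks at 4 h. Lost were also the cathepsin genes Ctsd and Ctsa and Tfe3, a transcription factor of lysosomal genes, each with 1 peak at 0 h. Gained were Aoah, Mcoln2, an endolysosomal cation channel (0, 5 and 4), Sqstm1, the autophagy receptor p62 (0, 3 and 2), Ctsz, Acp5 and Atp6v0e. The lysosomal genes thus differed from one another in direction.

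Of 18 macrophage identity genes 3 were gained, 6 lost and 5 kept. Gained were Abca1, a cholesterol exporter (0, 7 and 5 peaks), Spi1, the lineage factor PU.1 (0, 8 and 3), and Acp5. Counted in the gene or 5 kb upstream, Spi1 had 2 peaks at 0 h and 3 at 10 h, so it was not gained by that counting. Lost were Cd36, a scavenger receptor (3, 2 and 0), Cyba and Cybb, which encode the membrane subunits of the phagocyte NADPH oxidase (3, 2 and 0, and 1, 15 and 0), Lpl, lipoprotein lipase (2, 5 and 0), Axl and Ctsd. Markers of other cells had 1, 5 and 0 peaks in 4 genes of T and B cells and 0, 1 and 1 in 1 neuronal gene (Th), and the liver gene Apoa2 had 0, 1 and 1. Peaks are not expression, so these numbers check no cell type. Of 47 myeloid and inducible transcription factors 12 were gained, 16 lost and 6 kept. Pparg, a nuclear receptor of lipid metabolism, had 5, 4 and 2 peaks and its partner Rxra 1, 3 and 3. In the gene or 5 kb upstream, Pparg had 4 peaks at 0 h and 0 at 10 h, and Rxra 1 and 2. Fos, Irf4, Stat6 and Ikzf1 were among the lost and Myc, Klf4, Nfe2l2 and Stat5a among the gained, with 1 or 2 peaks each.

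The 28 hnRNP and splicing factor genes, relatives of hnRNP UL1 in function, had 37, 109 and 36 peaks, with 2 gained, 8 lost and 7 kept (34 and 35 peaks at 0 h and 10 h when counted in the gene or 5 kb upstream). Outside Cpeb4 the 0 h list had 29 peaks in them and the 10 h list 17. Lost were Hnrnpd and Snrpd1 with 2 peaks each, and Hnrnpa0, Hnrnpab, Ewsr1, Rbm25, Ddx39b and Pspc1 with 1 each. Gained were Snrnp200, a helicase of the spliceosome, and Ddx5, an RNA helicase, with 1 each. Start peaks in the list numbered 12 at 0 h and 5 at 10 h, beside 452 and 240 over all genes. Of 12 members with a 4 h and no 0 h peak, 1 had a peak at 10 h (8.33%, beside 22.6% over all such genes). Celf1 and Celf2, which regulate splicing and RNA stability, had 3 and 4 peaks at 0 h and 1 each at 10 h. Hnrnpa2b1 had 2, 6 and 3, and Taf15, an RNA-binding partner of the RNA polymerase II machinery, 1, 5 and 2. The 13 DNA damage genes had 7, 32 and 7 peaks, with 3 gained (Mdm2, Xrcc3 and Fancc), 3 lost (Ddb2, Msh3 and Rad50) and 3 kept.

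Of 33 chromatin and transcription coregulator genes 7 were gained, 6 lost and 6 kept, with 41 peaks at 0 h and 39 at 10 h. Start peaks in them numbered 16 and 7, beside 452 and 240 over all genes. The near-equal totals hid opposite members, with Arid5b and Ncor1 at 7 and 6 more peaks at 10 h and Zmiz1, Dnmt3a and Nsd1 at 9, 5 and 4 fewer. Gained were Brpf1, Cbx5, the heterochromatin protein HP1 alpha, and Mta1 with 2 peaks each, and Kmt2a, Baz1b, Cdk12 and Ezh1 with 1. Lost were Nsd1, Ncoa2, Chd3, Hdac2, Hdac9 and Suz12. Of 28 cytokine, chemokine and receptor genes 7 were gained, 4 lost and 5 kept, with 15 and 14 peaks. Among them Ccl8 had 0, 4 and 2 peaks, Csf1 0, 7 and 1, and the gp130 receptor gene Il6st 3, 5 and 1.

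Among small GTPases of the actin cytoskeleton and their regulators, Rac1 had 3, 0 and 0 peaks, Tiam1, a RAC activator, 3, 15 and 0, Dock2, the RAC activator of leukocytes, 5, 2 and 1, and Sipa1l2, a RAP inhibitor, 9, 7 and 4. Asap1, an Arf inhibitor, had 6, 23 and 5. Of the 23 Rab genes 2 were gained, 7 lost and 5 kept, and Rab3c had 1, 4 and 5 peaks. The 63 ubiquitin and proteasome genes had 30, 145 and 32 peaks, with 11 gained, 12 lost and 10 kept (21 and 20 at 0 h and 10 h when counted in the gene or 5 kb upstream). The polyubiquitin gene Ubb had 2, 2 and 2 peaks, and both 10 h peaks lay within 500 bp of a 0 h peak. Of the 31 mitochondrial genes 4 were gained, 6 lost and 3 kept. Of 19 mitochondrial genes with a 4 h and no 0 h peak 1 had a peak at 10 h (5.26%, beside 22.6%). The 9 ribosomal protein genes had 6, 17 and 5 peaks, with 2 gained, 1 lost and 3 kept. The 15 zinc finger genes had 3, 26 and 2, the 14 glycosyltransferase genes 13, 81 and 16, and the 14 genes of phosphoinositide signalling 17, 71 and 14.

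Peaks over the range fell on all autosomes at both times. Chromosome X had 5, 29 and 0 peaks at 0, 4 and 10 h, and chromosome 15 held 10.1% of the peaks at 0 h and 6.68% at 10 h. Peaks in introns or exons lay inside a gene other than the nearest named one in 58 of 444 cases at 0 h (13.1%) and 47 of 506 at 10 h (9.29%), so for these the named gene and the gene that holds the point differ.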

How the data were processed

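ChIP DNA of RAW 264.7 cells was sequenced at 0, 4 and 10 h of LPS, 1 library each. The programs named are CASAVA 1.8, BWA 0.7.12 and MACS2 2.1.0 and the build is GRCm38 (mm10), per the submitters' processing notes. Their roles and settings, peak thresholds and use of the input are not given in the sources used here. Per the file headers the authors deposited positions, an annotation class, the nearest gene, its description and the signed distance in bp to a start (other values, such as scores or counts, are not among the columns). Rows are sorted by gene ID. The table of 4 h ends inside a row, and that 1 row was left out. Depth is therefore unknown.

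Peaks were counted by the gene their row names, for IDs below 22416. Points within 500 bp were called shared. The 25 lists and the rule for named genes were chosen with earlier results of these data known. The rule names the 15 genes with the largest excess at each time, the 10 with most peaks at both, up to 4 members of each list with most peaks and genes with at least 3 shared points. Other genes in the text were named after their values were seen. Gene lengths came from RefSeq for 2093 of 2104 genes, and 7 genes had no name. For counting in the gene or 5 kb upstream, the span was instead the widest extent of the transcripts named by peaks of any time. A few genes and 1 list are not reported here. The counting code was tested on simulated data. Python 3.11.15, pandas 2.3.3, numpy 2.4.6, scipy 1.17.1 and matplotlib 3.10.9 were used. Alternatives were other distances, merged points, counting in the gene or 5 kb upstream, at least 2 peaks, no start peaks, and parts of the range.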

Additional observations from a re-analysis of the deposited data

How the results depend on the processing

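No paired analysis was possible because each time has 1 library. The shared percentage of 10 h peaks (7.99) was 4.34 within 200 bp, 10.9 within 1000 bp and 6.14 after points within 1000 bp were merged, and that of 0 h peaks (7.39) was 3.81, 10.1 and 5.44. With at least 2 peaks required, 75 genes were gained, 102 lost and 70 kept. Without start peaks 289 were lost and 203 kept. The start share was 38.7% at 0 h and 23.3% at 10 h without the 20 genes with most peaks, and at 10 h 23.7% and 18% in the lower and upper parts of the ID range. The remaining 11 alternatives for these summary values, including counting in the gene or 5 kb upstream with every row of the 0 h table, which was added after seeing the data, moved no count by over 1.5 times and no share outside its interval. Under counting in the gene or 5 kb upstream, the difference of 10 h minus 0 h peaks was -14 for solute carriers (-22 by nearest gene) and turned in sign for TLR4, NF-kB and MAP kinase genes (2), hnRNP and splicing genes (1), mitochondrial genes (-1), ubiquitin and proteasome genes (-1) and Hnrnpa2b1 (-1). In that counting Atp6v1c1, Gpr137b, Vps13d and Slc1a2 had a difference of 0, since points outside the gene are left out, and Dpys one of -2. Causes of the other shifts were not tested. No depth or height is known, so a peak absent from a list is not shown to be absent from the cells.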
